A study of Mus musculus with 8 samples.

Results

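Slbp and 6 further genes of histone mRNA processing and decay (Lsm10, Lsm11, Zfp473, Casp8ap2, Npat and Eri1) were followed in mouse embryonic stem cells in which transcription was blocked. The genes were listed by function, with earlier results of these arrays known. In those results Slbp stood out by its difference between 4OHT and vehicle, so the members' values in that comparison are a description, with no p-value given for them. The comparisons with untreated each share arrays with that comparison. All non-control probes whose RefSeq accession belongs to 1 of the 7 genes were taken, which gave 10 probes of the 55681 on the array. RNA of 8 cultures was hybridised to 1-colour Agilent arrays. All cultures held LIF, the cytokine used to keep such cells self-renewing, and the FGF receptor inhibitor PD173074 at 250 nM. Transcription was blocked with 5 µM actinomycin D in 3 cultures, which 30 min later received 250 nM 4OHT for 4 h (4-hydroxytamoxifen, a ligand of engineered oestrogen receptor fusions). In 2 cultures the same dose of actinomycin D was followed by 4 h with ethanol as vehicle, and 3 cultures were left untreated (0 h). The target of 4OHT in these cells is not named by the labels, and the titles of the untreated samples also carry an abbreviation of actinomycin D although their treatment label reads untreated.

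Replication-dependent histone mRNAs end in a conserved stem-loop instead of a poly(A) tail, and they accumulate while DNA is replicated. Slbp binds the stem-loop and accompanies the mRNA from 3′ end processing to translation and decay. Lsm10 and Lsm11 are the ring proteins particular to the U7 snRNP, the RNA-protein particle that recognises histone pre-mRNA downstream of the cleavage site. The human counterpart of Zfp473 (ZFP100) contacts both Slbp and Lsm11. Casp8ap2 (FLASH) binds Lsm11 and helps to bring in the cleavage complex, Npat is a coactivator of histone gene transcription, and Eri1 is a 3′ to 5′ exonuclease that trims and degrades histone mRNA ends.

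The deposited processed signal, a background-subtracted intensity, was put on a log2 scale minus the 75th percentile of the same array, and "level" below means that value. The actinomycin D arrays were dimmer as a whole, and the 75th percentile was 180 to 209 with 4OHT, 166 to 205 with vehicle and 333 to 457 in untreated cells. A level is therefore relative, and the median of the 33008 probes kept was 0.40 log2 higher with vehicle than untreated. Values are also given relative to 8 spike-in control probes, where that median was −0.88. The 4OHT arrays lay on 1 slide and all others on a second slide, so slide and 4OHT cannot be told apart. The vehicle and untreated arrays lay in different rows of their slide. Between vehicle and untreated, row, time and ethanol therefore cannot be told apart from actinomycin D. All 8 embryonic stem cell markers, among them Pou5f1 and Nanog, were well above background on every array. The log2 of their summed unlogged levels was 9.99 to 10.2 with 4OHT, 10.2 with vehicle and 9.59 to 9.77 untreated. With vehicle against untreated Klf4 fell by 3.61, Sox2 fell by 3.54 and Zfp42 fell by 1.06 log2 (adjusted p = 7.3e-06, 9.0e-06 and 0.0015, limma), while the other 5 stood between −0.0021 (Nanog) and 1.15 (Dppa5a). Of 6 feeder fibroblast markers 3 to 5 were well above background on the 4OHT arrays, 3 to 5 on the vehicle arrays and 4 to 5 on the untreated arrays. The log2 of their summed levels was 1.95 to 2.10 with 4OHT, 1.67 to 1.82 with vehicle and 1.31 to 1.87 untreated. Most of that sum was Thy1, which averaged 1.82 with 4OHT, 1.52 with vehicle and 1.33 untreated. No other feeder marker had a group mean above −2.32 (Col1a2 with vehicle). Postn was below background on all 8 arrays. Of 4 primitive endoderm markers 1 was well above background on each 4OHT and vehicle array and 4 on each untreated array. Gata6, Sox17 and Sox7 were so on the untreated arrays alone. The log2 of the summed levels was −2.35 to −1.94 with 4OHT, −2.09 to −2.08 with vehicle and −0.83 to −0.54 untreated. Of 4 trophoblast markers 2 to 3 were well above background in each group, with Elf5 on no array. Their summed levels had a log2 of −1.96 to −1.53 with 4OHT, −1.88 to −1.53 with vehicle and −0.69 to −0.13 untreated. The part of other cells in the results was not tested, and fewer cells of a type cannot be told apart from less RNA per cell.

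Of the 10 probes, 9 were well above background on all 8 arrays, covering Slbp, Zfp473 and Casp8ap2 with 2 probes each and Lsm10, Lsm11 and Eri1 with 1. The Npat probe was not kept, since it was well above background on 0 of 3 4OHT, 1 of 2 vehicle and 2 of 3 untreated arrays. No difference is given for Npat, and its levels ran from −4.87 to −4.35 with 4OHT, from −4.66 to −3.96 with vehicle and from −7.20 to −4.72 untreated.

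**Figure D1:**
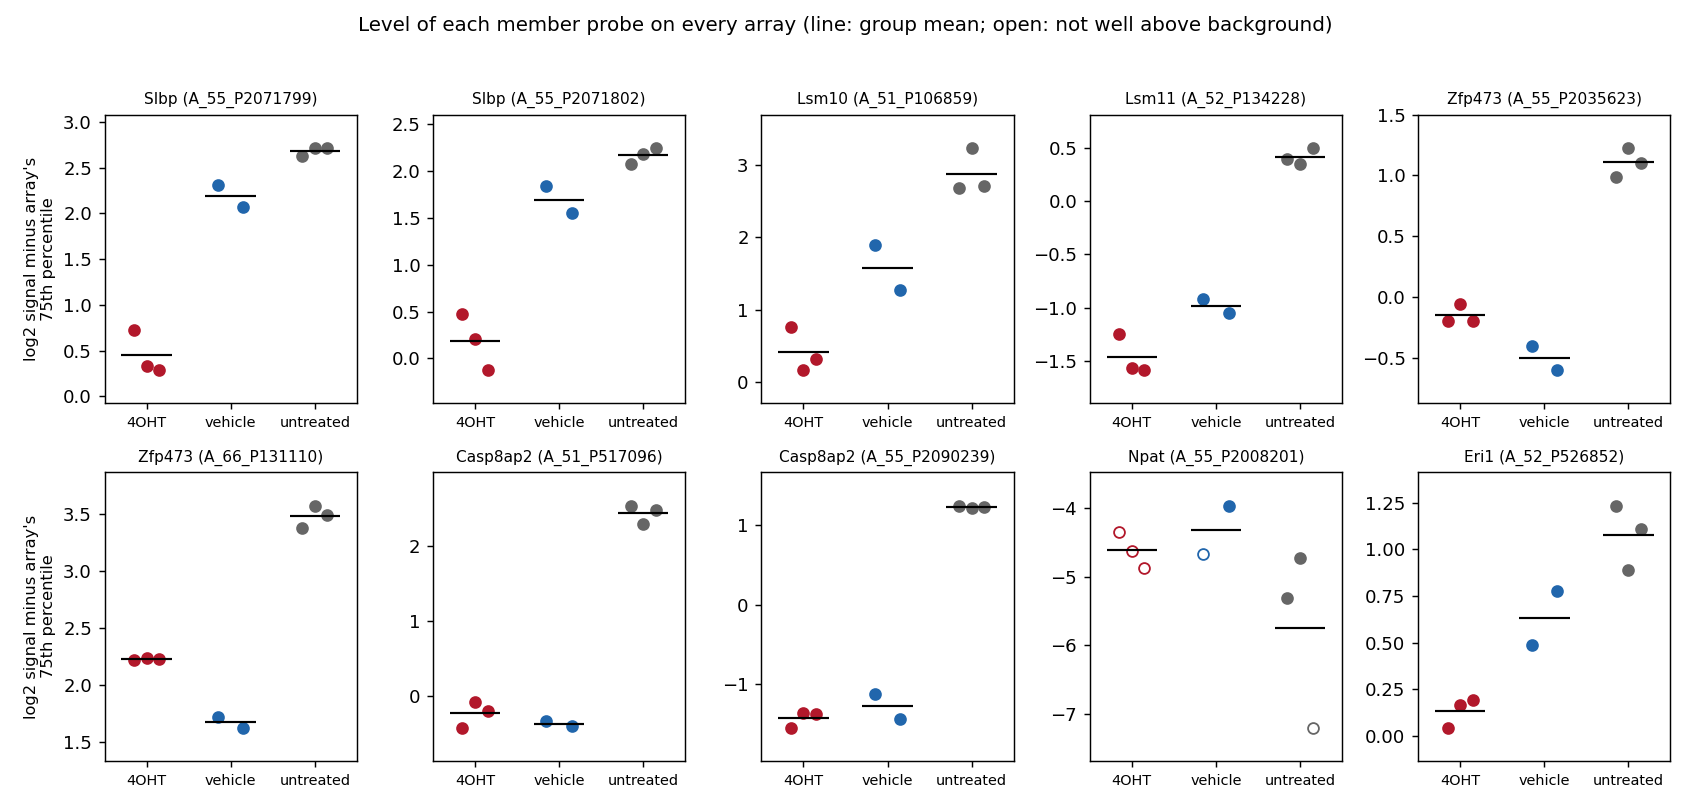
Level of each of the 10 probes on every array (y axis, log2 relative to the 75th percentile of that array) in the 4OHT, vehicle and untreated groups (x axis). Points are single arrays, lines are group means and open points were not well above background. Both Slbp probes are lowest with 4OHT and highest untreated, both Zfp473 probes are lowest with vehicle, and the Casp8ap2 points of 4OHT and vehicle overlap.

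Slbp, the stem-loop binding protein, was lower with 4OHT than with vehicle on both probes. The brighter probe (A_55_P2071799, accession NM_009193) had levels of 0.73, 0.33 and 0.29 with 4OHT, 2.31 and 2.06 with vehicle and 2.63, 2.72 and 2.71 untreated. The 3 groups do not overlap, and the 4OHT arrays stand well apart from the other 5. The same order is visible before any scaling, with a processed signal of 346, 227 and 223 with 4OHT, 823 and 858 with vehicle and 2056, 3002 and 2652 untreated.

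The difference between 4OHT and vehicle was −1.74 ± 0.16 log2 (SE), or 3.33-fold lower, with a 95% interval of −2.11 to −1.37. Of the 33008 probes kept, 163 had a lower value in this comparison. The second probe (A_55_P2071802) had levels of 0.48, 0.21 and −0.12 with 4OHT, 1.84 and 1.55 with vehicle and 2.07, 2.18 and 2.24 untreated. Its difference between 4OHT and vehicle was −1.50 ± 0.19 (2.84-fold lower), so both probes gave a value of similar size. Relative to the spike-in probes the differences were −2.04 ± 0.27 and −1.81 ± 0.29, and with normexp background correction −1.49 and −1.05. These values were used to pick Slbp out and are given as a description.

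With vehicle against untreated, the brighter Slbp probe fell by 0.50 ± 0.16 log2 (adjusted p = 0.029, limma), leaving 70.8% of the untreated level relative to the 75th percentile and 29.2% relative to the spike-in probes. The second probe stood at −0.47 ± 0.19 and did not pass (adjusted p = 0.064). The call on the brighter probe is lost without untreated replicate 1 (adjusted p = 0.053), 2 (0.063) or 3 (0.080) or vehicle replicate 2 (0.17), with limma in each case, while the second probe passes without 4OHT replicate 1 (0.037) or 3 (0.034). The brighter probe's call is also lost with median scaling (adjusted p = 0.19) and no filter (0.065). The second probe passes with normexp (0.00093), quantile normalization (0.036), no scaling (0.0016) or spike-in scaling (0.00075), and also with probes kept only where all 8 arrays were well above background (0.047), trended eBayes (0.036) or only those groups fitted (0.038), all limma. This comparison shares its vehicle arrays with the one that picked Slbp out, so its p-values for Slbp are a description and no independent test. Between 4OHT and untreated the 2 probes differed by −2.23 ± 0.14 and −1.98 ± 0.17, which leaves 21.2% and 25.4% of the untreated level, and 7.09% and 8.48% relative to the spike-in probes.

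Lsm10, a U7 snRNP ring protein, followed the same order of groups. Its probe is printed in 10 spots per array and had levels of 0.76, 0.17 and 0.32 with 4OHT, 1.89 and 1.27 with vehicle and 2.67, 3.23 and 2.70 untreated. No group overlapped another, and untreated replicate 2 was the highest array. Within an array the coefficient of variation over the spots used (9 or 10) was 4.75 to 6.71% with 4OHT, 5.21 and 11.3% with vehicle and 3.01 to 4.12% untreated. Between the untreated arrays the SD of the level was 0.31 log2 (n = 3).

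The difference of Lsm10 between 4OHT and vehicle was −1.16 ± 0.28 log2 (2.23-fold lower, 95% interval −1.82 to −0.50), and −1.47 ± 0.32 relative to the spike-in probes. Without vehicle replicate 1 it was −0.85 and without vehicle replicate 2 −1.47, so the array left out moves its size by over 1.5 times. With vehicle against untreated, Lsm10 fell by 1.29 ± 0.28 (adjusted p = 0.0063, limma), leaving 40.9% of the untreated level. That call is lost without vehicle replicate 2 (−0.98, adjusted p = 0.051, limma).

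Lsm11, the second U7-specific ring protein, had levels of −1.24, −1.57 and −1.58 with 4OHT, −0.92 and −1.05 with vehicle and 0.39, 0.35 and 0.50 untreated. The untreated arrays are far above the others, and the 4OHT arrays all lie below both vehicle arrays. With vehicle it fell by 1.40 ± 0.13 log2 (adjusted p = 0.00027, limma), which leaves 38.0% of the untreated level and 15.7% relative to the spike-in probes. Between 4OHT and vehicle it differed by −0.48 ± 0.13, or −0.78 ± 0.26 relative to the spike-in probes and −0.29 with normexp.

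Zfp473, the zinc finger protein of the U7 particle, was the member that stood higher with 4OHT than with vehicle on every probe. Its brighter probe (A_66_P131110) had levels of 2.22, 2.24 and 2.23 with 4OHT, 1.72 and 1.63 with vehicle and 3.38, 3.58 and 3.49 untreated. The 4OHT arrays lie between the other groups without overlap and close to each other. The difference between 4OHT and vehicle was 0.56 ± 0.10 (1.47-fold) on this probe and 0.35 ± 0.12 (1.27-fold) on the second (A_55_P2035623). Relative to the spike-in probes these shrank to 0.25 ± 0.21 and 0.04 ± 0.21, and on that scale the groups of the second probe overlap.

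With vehicle against untreated, both Zfp473 probes fell, by 1.81 ± 0.10 (adjusted p = 3.5e-05) and 1.61 ± 0.12 (adjusted p = 0.00012, limma). This leaves 28.5% and 32.8% of the untreated level. Between 4OHT and untreated the probes differed by −1.25 ± 0.09 and −1.26 ± 0.10, which leaves 42.0% and 41.8%. The second probe had levels of −0.20, −0.06 and −0.20 with 4OHT, −0.40 and −0.60 with vehicle and 0.99 to 1.23 untreated, in the same order of groups as the first.

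Casp8ap2, the Lsm11 partner that helps to bring in the cleavage complex, had the largest falls of the 9 probes with vehicle against untreated. Its brighter probe (A_51_P517096) had levels of −0.41, −0.07 and −0.19 with 4OHT, −0.33 and −0.39 with vehicle and 2.54, 2.28 and 2.48 untreated. With vehicle this probe fell by 2.80 ± 0.13 log2 (6.94-fold, adjusted p = 2.5e-05, limma), and the second (A_55_P2090239) fell by 2.50 ± 0.12 (5.65-fold, adjusted p = 2.6e-05, limma). The second probe had levels of −1.54, −1.36 and −1.38 with 4OHT, −1.11 and −1.43 with vehicle and 1.24, 1.22 and 1.22 untreated, so on both probes the untreated arrays stand apart from the other 5. Of the untreated level 14.4% and 17.7% were left, and 5.94% and 7.30% relative to the spike-in probes.

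Between 4OHT and vehicle the Casp8ap2 arrays overlapped on both probes. The differences were 0.14 ± 0.13 with a 95% interval of −0.18 to 0.45, and −0.15 ± 0.12 with a 95% interval of −0.44 to 0.14. Relative to the spike-in probes they were −0.17 ± 0.20 and −0.46 ± 0.20, so the sign of the first flips with the scale. On the spike-in scale the 4OHT arrays lay below the vehicle arrays without overlap on both probes. The signal of both probes was well above background on all 8 arrays, at 157, 172 and 160 with 4OHT and 132 and 156 with vehicle on the brighter probe.

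Eri1, the exonuclease, had levels of 0.05, 0.17 and 0.19 with 4OHT, 0.49 and 0.78 with vehicle and 1.23, 0.89 and 1.11 untreated. The groups step down from untreated through vehicle to 4OHT without overlap. With vehicle it fell by 0.44 ± 0.14 log2 (adjusted p = 0.032, limma), which leaves 73.6% of the untreated level and 30.4% relative to the spike-in probes. That call is lost without 4OHT replicate 2 (adjusted p = 0.052) or 3 (0.050), untreated replicate 1 (0.083) or 3 (0.088), or vehicle replicate 1 (0.18), and with median scaling (0.28), no filter (0.072), only those groups fitted (0.073) or the replicate block (0.096), with limma throughout. Between 4OHT and vehicle the difference was −0.50 ± 0.14 (1.41-fold lower), and −0.80 ± 0.23 relative to the spike-in probes.

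**Figure D2:**
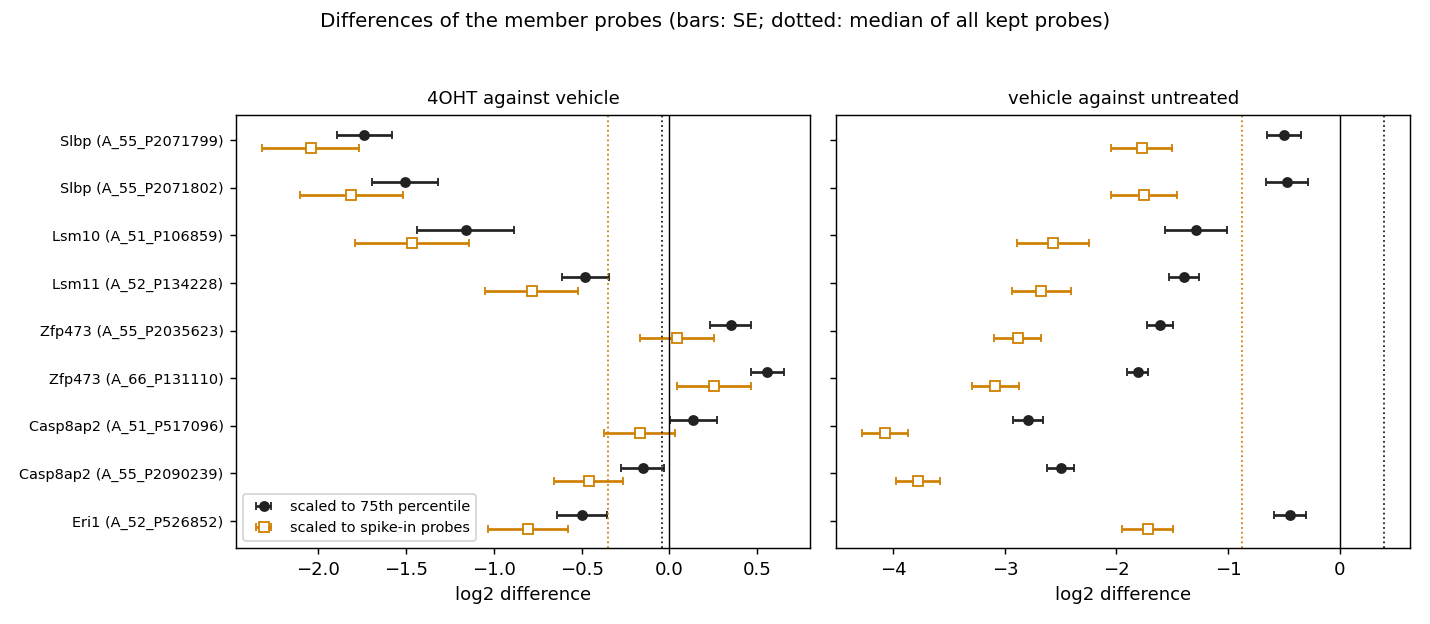
Log2 differences (x axis) of the 9 probes kept (y axis) for 4OHT against vehicle (left) and vehicle against untreated (right). Filled circles are scaled to the 75th percentile, open squares to the spike-in probes, bars are standard errors and dotted lines the median of all 33008 probes on each scale. With 4OHT against vehicle Slbp lies lowest at −1.74 and −1.50 and Zfp473 highest at 0.56 and 0.35, while with vehicle against untreated Casp8ap2 lies lowest at −2.80 and −2.50.

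Over the 9 probes, 8 fell with vehicle against untreated and 0 rose (limma, adjusted p under 0.05), where 16% of all probes kept were called lower and 42.1% higher. At an unadjusted p under 0.05, 9 were lower and 0 higher (limma), and the matching shares of all probes are not given. The median of the 9 was −1.40 log2, against 0.40 over all probes. Relative to the spike-in probes all 9 were called lower, as were 65.2% of all probes. All 9 had groups that do not overlap, which holds for 71.7% of all probes.

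Between 4OHT and untreated 9 of 9 were called lower, where 18.7% of all probes were (93.3% on the spike-in scale), and 9 of 9 did not overlap, against 67.2% of all probes. This comparison shares its 4OHT arrays with the next. Between 4OHT and vehicle 2 probes, both of Slbp, were called lower and 1, the brighter of Zfp473, higher, where 2.51% and 0.936% of all probes were. The median of the 9 was −0.48, against −0.04 over all probes. The groups did not overlap on 7 of 9 probes, against 37.9% of all probes. Nothing is read from these last counts, because this comparison had drawn attention to the genes.

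**Figure D3:**
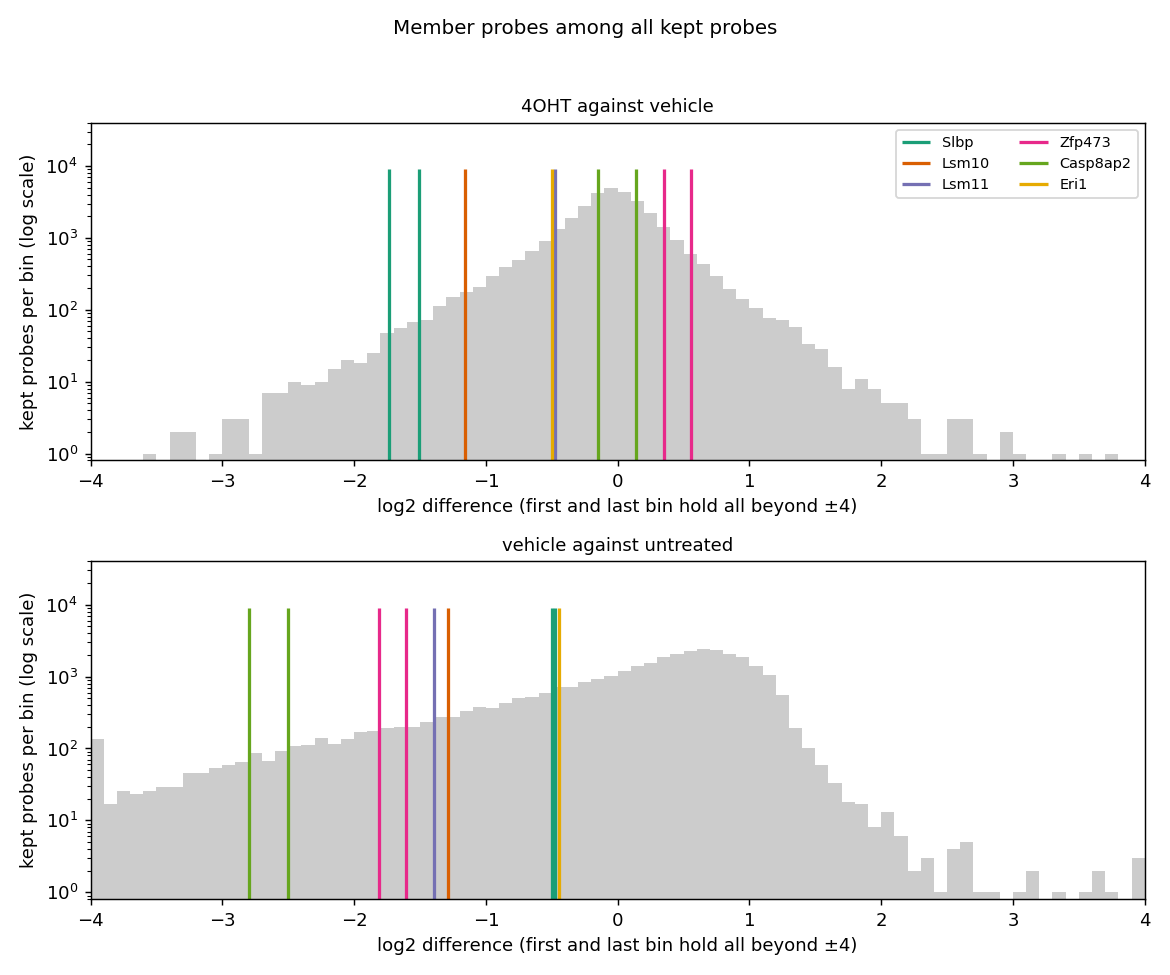
Number of kept probes per bin of 0.1 log2 (y axis, log scale) by difference (x axis), for 4OHT against vehicle (top) and vehicle against untreated (bottom). Coloured lines mark the member probes. With 4OHT against vehicle the 2 Slbp lines lie in the lower tail, where 163 and 301 probes are lower still, and with vehicle against untreated the Slbp and Eri1 lines lie close together between −0.50 and −0.44.

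Among the 9 probes, those of Casp8ap2 had the lowest values with vehicle against untreated and values near 0 between 4OHT and vehicle. Those of Slbp and Eri1 had the values closest to 0 with vehicle against untreated, and those of Slbp the lowest between 4OHT and vehicle. The comparisons share the vehicle arrays, and the change of order was not tested. The probes are no replicates of each other, because pairs of them share a gene and all share the arrays.

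The 5 gene symbols whose levels over the 8 arrays were most like those of the brighter Slbp probe were Topbp1 (Pearson r = 0.996), 1110059E24Rik (0.993), Zfp706 (0.992), Slc25a12 (0.991) and Mapk4 (0.990). They were chosen by that value among 5021 symbols with an SD of at least 0.5 log2, and the arrays fall into 3 groups, so r mostly follows the group means. The levels of Zfp706 averaged 3.09 with 4OHT, 4.31 with vehicle and 4.88 untreated. Those of Topbp1 averaged 2.50 with 4OHT, 3.34 with vehicle and 3.58 untreated. Mapk4 was well above background on 5 of 8 arrays.

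Other genes of histone mRNA metabolism were taken from 5 lists of 60 genes, of which 59 were tested and Ccne2 was not kept. The 12 genes of cleavage and cap binding had 7 rises and 0 falls with vehicle against untreated (limma, 8 and 0 at an unadjusted p under 0.05), and their median was 0.48 log2 (−0.80 relative to the spike-in probes). Over all 14930 symbols 41.5% were called higher and 19.2% lower by adjusted p, and the median was 0.35 (−0.92 relative to the spike-in probes). For the counts by unadjusted p the matching shares of all symbols are not given. Cpsf1, a subunit of the polyadenylation specificity factor, rose by 1.03 ± 0.10 (adjusted p = 0.0003, limma; −0.25 on the spike-in scale), and Srrt (Ars2), a partner of the cap-binding complex, rose by 0.85 ± 0.11 (adjusted p = 0.00061, limma; −0.42 on the spike-in scale). The 5 Sm proteins that U7 shares with the spliceosome had 4 rises and 0 falls (limma, also 4 and 0 at an unadjusted p under 0.05), their median being 1.06 (−0.21 on the spike-in scale), among them Snrpf by 1.19 ± 0.11 and Snrpg by 1.18 ± 0.11 (−0.09 and −0.10 on the spike-in scale). In the same comparison Lsm10 and Lsm11 were at −1.29 and −1.40, and at −2.57 and −2.67 on the spike-in scale.

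The 24 genes of histone mRNA decay and translation had 15 rises and 5 falls with vehicle (median 0.58, −0.70 on the spike-in scale). Lsm5, a subunit of the cytoplasmic Lsm ring, rose by 1.40 ± 0.12 (0.12 on the spike-in scale) and Lsm7, of the same ring, by 1.21 ± 0.14 (−0.07 on the spike-in scale). Dcp1a, a decapping factor, fell by 1.70 ± 0.15 (adjusted p = 0.00022, limma), as did Pnrc2, an adaptor between Upf1 and decapping, by 1.70 ± 0.13 (adjusted p = 0.00014, limma). The 9 genes of histone gene transcription had 3 rises and 2 falls (median −0.02, −1.30 on the spike-in scale). Cramp1l fell by 1.98 ± 0.12 and Hinfp, which binds histone H4 promoters, by 1.05 ± 0.09. The second Hinfp probe went the other way and was higher with vehicle by 0.43. Gon4l rose by 0.78 ± 0.10 (−0.50 on the spike-in scale) and E2f1 by 0.54 ± 0.10 (−0.74 on the spike-in scale).

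Of 9 genes of Slbp protein turnover, 3 rose and 2 fell with vehicle (median 0.15, −1.13 on the spike-in scale). Fem1c and Fem1a, ubiquitin ligase receptors whose human counterparts target SLBP, fell by 2.68 ± 0.13 and 1.73 ± 0.16. Dcaf11 rose by 0.73 ± 0.13 (−0.55 on the spike-in scale). Over the 5 lists 32 genes rose and 9 fell, or 54.2% and 15.3%. The split turns with the scale, to 0 higher and 38 lower relative to the spike-in probes, where 0.0603% and 70.1% of all symbols were called.

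In 4OHT against vehicle, 6 of the 59 genes were called lower (10.2%, against 3.07% of all symbols) and 0 higher (against 1.32% of all symbols). At an unadjusted p under 0.05, 13 were lower and 4 higher (limma). The matching shares of all symbols were not computed, so nothing is read from those counts. Fem1b, a further receptor of that ubiquitin ligase family, was lower by 1.29 ± 0.18 log2 (adjusted p = 0.018, limma). Ccna2, cyclin A, whose kinase phosphorylates human SLBP ahead of its degradation, was lower by 1.06 ± 0.12 (adjusted p = 0.011, limma). Pnrc2 was lower by 0.80 ± 0.13 (adjusted p = 0.026, limma), Coil, the scaffold of Cajal bodies, by 0.69 ± 0.09 (adjusted p = 0.017, limma), Cstf2t, a polyadenylation factor, by 0.65 ± 0.11 (adjusted p = 0.029, limma) and Lsm1 by 0.49 ± 0.09 (adjusted p = 0.036, limma). The count of 6 fell to 4, 5 and 1 without untreated replicate 1, 2 and 3, to 0 and 1 without vehicle replicate 1 and 2, and to 3, 1 and 1 without 4OHT replicate 1, 2 and 3. It was 0 with median scaling and without scaling, and 6 relative to the spike-in probes, where 3.59% of all symbols were called lower.

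The medians with 4OHT against vehicle were 0.08 for cleavage and cap binding (1 lower), 0.04 for the Sm proteins (0 called; limma, 1 lower at an unadjusted p under 0.05), −0.02 for decay and translation (2 lower), −0.13 for histone gene transcription (1 lower) and −0.04 for Slbp protein turnover (2 lower), against −0.02 over all symbols. On the spike-in scale they ran from −0.44 to −0.22, against −0.33 over all symbols.

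Probes of the genes whose RNAs these factors act on were measured too. Whether the labelling took up RNAs that end in the stem-loop, without a poly(A) tail, was not tested. The histone values may therefore not be levels of the processed mRNAs. A list of 70 genes, called replication-dependent histone genes here, was taken by name alone, through symbols or synonyms of the histone clusters. It also holds entries named as pseudogenes (H2af-ps2 and H2bu1-ps), which were not tested. Whether each listed gene is replication-dependent was not checked. Of the 70 genes 43 were tested. With vehicle against untreated 26 fell and 6 rose (60.5% and 14.0%, where 19.2% and 41.5% of all symbols were called). Their median was −1.12 log2 (−2.40 on the spike-in scale). Relative to the spike-in probes 32 were called lower and 0 higher, against 70.1% and 0.0603% of all symbols. Among the 43 genes, H2ac21 and H2ac6 were kept through the untreated arrays alone. Neither was well above background on any vehicle array, so nothing is read from the size of their differences. H2ac21 is among the 26 falls and H2ac6 was not called. H1f5, a linker histone, fell by 5.11 ± 0.14 and H2ac4, a core histone, fell by 4.48 ± 0.10. H4c9 rose by 1.77 ± 0.12 (0.49 on the spike-in scale), with 0.37 on its second probe, and H4c8 by 1.04 ± 0.17 (−0.24 on the spike-in scale). These histone values were known from earlier results. Several of these genes are near-identical copies, so probes can share signal between them.

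Between 4OHT and vehicle 1 of the 43 histone genes was called lower (2.33%, against 3.07% of all symbols) and 0 higher (against 1.32%). At an unadjusted p under 0.05, 16 were lower and 0 higher (limma). The matching share of all symbols was not computed, so nothing is read from that count. The gene called was H2ac4, lower by 0.52 ± 0.10 (adjusted p = 0.039, limma), and the count was 0 when any 1 of the 8 arrays was left out. H2ac21 and H2ac6 were not well above background on any 4OHT or vehicle array and have no difference here. Of the other 41 differences 37 lay below 0, and their median was −0.32 (−0.63 on the spike-in scale) with a range of −0.57 to 0.18. The median over all symbols was −0.02 (−0.33 on the spike-in scale), and the share of all symbols below 0 was not computed.

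**Figure D4:**
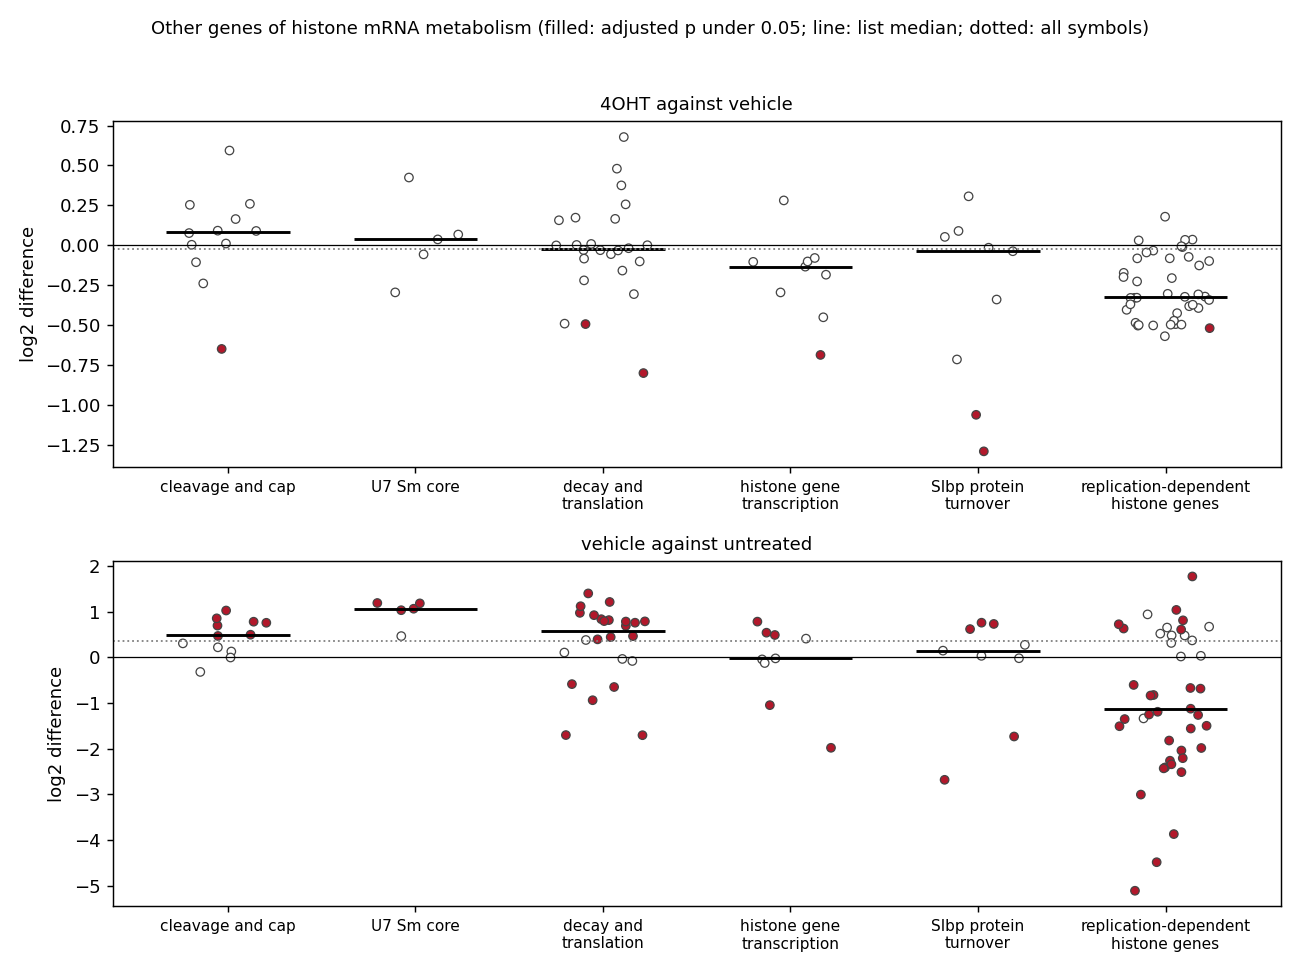
Log2 differences (y axis) of the 59 pathway genes in 5 lists and of the 43 histone genes (x axis), for 4OHT against vehicle (top) and vehicle against untreated (bottom). Each point is a gene (41 of the 43 histone genes in the top panel, without those below background in both groups), filled points have an adjusted p under 0.05, black lines are list medians and the dotted line is the median of all symbols. With 4OHT against vehicle the filled points are 6 pathway genes and 1 histone gene, all below 0, and with vehicle against untreated the histone median lies at −1.12.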

How the data were processed

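The authors deposited 1 Agilent Feature Extraction file (11.0.1.1, per the file headers; design build mm9) per array, with a processed signal (intensity, background-subtracted). The deposited value table holds the same intensity within 0.5% for 100% of spots. Per the labels, total RNA was labelled with a low-input kit. Outlier-marked and control spots were left out, spots of a probe averaged, and probes kept where all arrays of 1 or more groups were well above background (33008 of 55681). Names came through RefSeq accessions from a GRCm38.p6 gene table, used for names only. Limma 3.58.1 (R 4.3.3) fitted all 3 groups, adjusting by Benjamini-Hochberg over 33008 probes, called under 0.05. P-values measure the spread between cultures, called biological replicates by the design text, and precision is limited by the number of arrays. Genes in lists are represented by their brightest probe. Spike-in scaling used 8 of 10 E1A probes. The procedure was tested on simulated data. Members and lists were chosen with earlier results of these data known. The text names all member probes, up to 2 risers and fallers per list and comparison, and the 5 genes most like Slbp (1 list gene is not reported here). Alternatives were another background correction, scalings, filters, variance model, samples in the fit, replicate block, 1 value per gene, the deposited table and leaving out each array.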

Additional observations from a re-analysis of the deposited data

How the results depend on the processing

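The counts of member probes called lower with vehicle against untreated (6 to 9) and with 4OHT against untreated (6 to 9) stayed within 1.5 times of the main values under all alternatives, those that leave out an array included, with 1 value per gene giving 6 of 6. With vehicle against untreated, median scaling or no filter also gave 6, of 9 probes, since neither Slbp probe nor Eri1 passed. With 4OHT against vehicle the members called lower numbered 1 with no filter, without scaling and with 1 value per gene, and 0 when only those groups were fitted or with the replicate block (1 to 2 leaving out an array). The member called higher was lost (0) with median, quantile, spike-in or no scaling, no filter, only those groups or the replicate block (0 to 1 leaving out an array). Slbp, 4OHT minus vehicle, was −1.49 and −1.05 with normexp, −2.04 and −1.81 with spike-in scaling, and −1.87 to −1.61 and −1.65 to −1.35 leaving out an array. Pathway genes with vehicle against untreated gave 20 higher with quantile normalization and 0 without scaling or with spike-in scaling, and 31 lower without scaling, 15 with normexp, 19 with quantile and 38 with spike-in scaling (29 to 34 higher, 8 to 9 lower leaving out an array). With 4OHT against vehicle they gave 1 higher with normexp or trended eBayes (0 to 1 leaving out an array) and 0 lower with median scaling, no filter, no scaling, only those groups or the replicate block (0 to 5 leaving out an array). Histone genes gave 1 higher without scaling, 12 with normexp and 0 with spike-in scaling (vehicle against untreated, 5 to 7 leaving out an array). Between 4OHT and vehicle they gave 4 lower with normexp, 3 with spike-in scaling, 5 with trended eBayes and 0 with median, quantile or no scaling, no filter, only those groups, the replicate block or any array left out. Other than for spike-in scaling, the shares of all symbols called under each alternative are not given, and the cause of these shifts was not tested. The replicate numbers do not pair the arrays (correlations of deviations −0.21 to 0.38 over 7 same-numbered pairs). No spot was saturated (0).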
